A study of Mus musculus with 6 samples.

Results

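The 10 genes described here encode adhesion and homing molecules of blood stem cells: the integrin chains Itga4 and Itgb1, their ligand Vcam1, the chemokine receptor Cxcr4, the hyaluronan receptor Cd44, the selectin ligand Selplg, the junction proteins Esam and Jam3, the gap junction protein Gja1 and the cadherin Cdh2. They were chosen by symbol for their role in holding stem cells in the bone marrow, and all 10 were found among the 24110 genes of the deposited table. RNA had been sequenced from hematopoietic stem cells sorted from bone marrow by a gate that kept cells with Sca-1 and CD150 and removed cells with lineage markers or CD48. The Prmt5 KO group (Prmt5Δ/Δ) held 3 libraries and the Prmt5 fl/fl group 3, each made from cells of 2 pooled C57BL/6 mice taken 7 days after induction of the deletion, with littermates of matched sex in both groups. Both genotypes carry the floxed Prmt5 gene, an arginine methyltransferase whose substrates include splicing proteins, and the labels name neither the recombinase and its promoter, the inducing agent, nor the age of the mice.

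Stem cells stay in the marrow because the CXCL12 made by stromal cells acts on their receptor CXCR4, and because integrins on their surface grip VCAM1 and matrix proteins. Cells that return from the blood first roll on selectins through ligands such as PSGL-1 and CD44, then arrest through the integrin VLA-4, which is made of the alpha4 and beta1 chains. Junction proteins and connexin channels add contacts with endothelial, stromal and neighbouring blood cells.

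The libraries held 37834096 to 41812565 reads in genes in Prmt5 KO and 42213314 to 44704636 in Prmt5 fl/fl, and the values called scaled counts below are counts brought to 1 common total of 44704636. Prmt5 was at 1056, 1049 and 897 scaled counts in Prmt5 KO replicates 1 to 3, against 6076, 6024 and 6010 in Prmt5 fl/fl, so every library matched its label. The log2 fold change was -2.60, with an error (SE) of 0.13 (adjusted p = 6.18e-04, limma, and 0.0618 in a fit blocked by replicate number). The labels do not say which part of Prmt5 was deleted, so reads from the remaining exons count. Of 15 genes known from stem cells, among them Kit, Ly6a, Slamf1, Procr and Mecom, all 15 had reads in every library. So did all 9 genes of the neutrophil set below and 12 of 13 megakaryocyte and platelet genes. Such presence does not tell cell types apart. Of the 15, 1 was called lower in Prmt5 KO (limma, adjusted p below 0.05), where 0.453% of all genes tested were lower. The same test called 2 of the 13 megakaryocyte and platelet genes lower and 0 higher. Among 7 tested genes of red cell precursors it called 1 lower and 0 higher. Cd48, the marker of cells that the sort removed, was at 9.63 to 13.2 FPKM (reads divided by gene length and library total) in Prmt5 KO and at 8.74 to 14.8 FPKM in Prmt5 fl/fl. A set of 9 genes of neutrophils and their precursors, among them S100a8, Ngp and Elane, summed to 3456, 2337 and 29384 FPKM in Prmt5 KO replicates 1 to 3, against 6392, 2316 and 659 FPKM in Prmt5 fl/fl replicates 1 to 3. Prmt5 KO replicate 3 thus stood apart from the other libraries in this sum, and was the highest for S100a8, S100a9, Ngp, Camp and Ltf. Elane, Mpo and Ctsg were instead highest in Prmt5 fl/fl replicate 1, at 356, 471 and 67.0 FPKM. In Prmt5 KO replicate 3 they were at 118, 140 and 17.4 FPKM. Prtn3 was highest in Prmt5 fl/fl replicate 3, at 220 FPKM. Fold changes of tested genes that rest on Prmt5 KO replicate 3 are given with and without it. In bulk RNA, fewer cells of a type and less RNA per cell cannot be told apart.

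Gja1 was the only member called different between the genotypes: its level in Prmt5 KO stem cells was 2.13-fold that in Prmt5 fl/fl. This call held in 7 of 14 other ways of processing. Cd44 was higher and Selplg lower in all 3 Prmt5 KO libraries, but neither passed the test over all genes. The integrin chains Itga4 and Itgb1, the receptor Cxcr4 and the junction proteins Esam and Jam3 differed by less than their spread between libraries. Vcam1 was high in 1 Prmt5 KO library, replicate 3, and Cdh2 was close to 0 throughout. Of the 10 members, 9 had a mean of at least 10 scaled counts and were tested. At an adjusted p below 0.05 (limma, adjusted over all 14113 genes tested), 1 of them was higher and 0 were lower, where 0.276% of all genes tested were higher and 0.453% lower, 0.73% in all. The 3 Prmt5 KO values did not overlap the 3 Prmt5 fl/fl values for 3 of the 9, and this was so for 28.2% of all genes tested, so the share among the members was near that background.

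**Figure D1:**
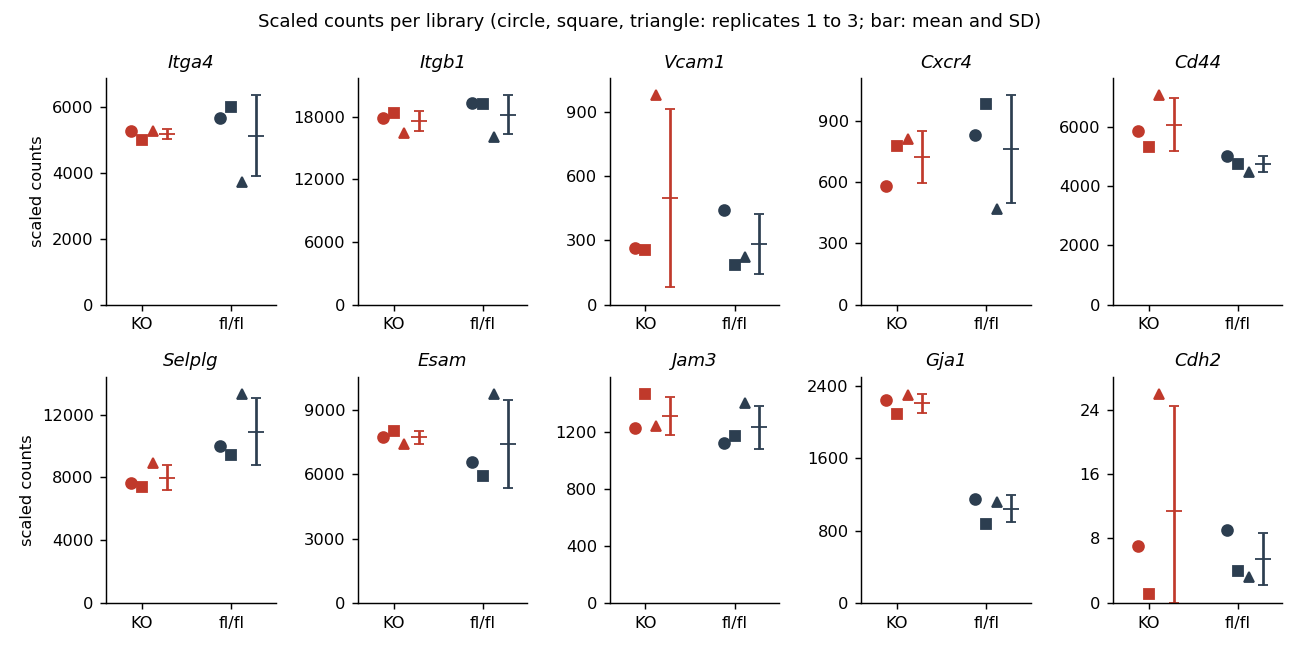
Scaled counts of the 10 genes in each library, with Prmt5 KO at the left and Prmt5 fl/fl at the right of each panel. Circles, squares and triangles are replicates 1, 2 and 3, and the bar beside them is the mean with 1 SD (n = 3), drawn no lower than 0. Gja1 lies at 2089 to 2299 in Prmt5 KO, above 870 to 1151 in Prmt5 fl/fl, while Vcam1 and Cdh2 have their highest value in Prmt5 KO replicate 3.

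Gja1 encodes connexin 43, the subunit of gap junction channels through which stem and stromal cells exchange small molecules. It was at 2243, 2089 and 2299 scaled counts in Prmt5 KO replicates 1 to 3, against 1151, 870 and 1113 in Prmt5 fl/fl replicates 1 to 3. Every Prmt5 KO library was above every Prmt5 fl/fl library. The means were 2210 ± 109 in Prmt5 KO and 1045 ± 152 in Prmt5 fl/fl (SD, n = 3 each), which gave a log2 fold change of 1.09 (standard error 0.16, 95% interval 0.72 to 1.46) (adjusted p = 0.0429, limma). The differences within the pairs of libraries of the same number were 0.96, 1.26 and 1.05 on the log2 scale, a shared direction that follows from the groups lying apart. Over 14 other ways of processing, the log2 fold change ran between 0.96 and 1.18. The call was narrow. Gja1 was also the 1 member of 9 called by edgeR, which called 0.425% of all genes tested, and by DESeq2, which called 6.95%. It was kept by edgeR (adjusted p = 0.0458) and DESeq2 (adjusted p = 1.08e-07), and lost in the fit blocked by replicate number (adjusted p = 0.197, limma) and with quantile normalization (adjusted p = 0.0548, limma). Without Prmt5 KO replicates 1, 2 and 3 in turn the limma adjusted p was 0.228, 0.111 and 0.184, and without Prmt5 fl/fl replicates 1, 2 and 3 it was 0.0914, 0.153 and 0.0253.

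Marrow stroma and endothelium also express Gja1, so their markers were read beside it. The 12 stromal and osteoblast genes, among them Lepr, Pdgfra, Col1a1 and Adipoq, summed to 3.27 to 5.20 FPKM in Prmt5 KO and 3.40 to 6.75 FPKM in Prmt5 fl/fl, and none was at 0 in every library. Gja1 alone was at 15.1 to 16.6 FPKM in Prmt5 KO and 6.27 to 8.29 FPKM in Prmt5 fl/fl. The 9 endothelial genes summed to 122 to 140 FPKM in Prmt5 KO and 94.9 to 102 FPKM in Prmt5 fl/fl, without overlap. Most of this came from Egfl7 and Tie1, of which Egfl7 was at 66.7 to 74.8 FPKM in Prmt5 KO and 40.7 to 60.7 FPKM in Prmt5 fl/fl. Ramp2, a partner of the adrenomedullin receptor, was at 3.00 to 3.55 FPKM in Prmt5 KO and 0.718 to 1.79 FPKM in Prmt5 fl/fl, also without overlap. Cldn5, a claudin of endothelial tight junctions, was at 0.507 to 0.672 FPKM in Prmt5 KO and 0.815 to 1.96 FPKM in Prmt5 fl/fl. Tie1 overlapped, at 48.0 to 58.6 FPKM in Prmt5 KO and 30.7 to 53.3 FPKM in Prmt5 fl/fl. Kdr overlapped as well, at 0.189 to 0.703 FPKM in Prmt5 KO and 0.543 to 1.47 FPKM in Prmt5 fl/fl. The groups also overlapped for Flt4, Stab2, Plvap and Lyve1. None of the 9 was at 0 in every library, and their part in the Gja1 result was not tested.

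The sequence upstream of Gja1 is shown because this was the member called, with that of Cxcr4, the homing receptor with no call, for comparison. Both are the 250 bases before the gene's start in RefSeq, on build GRCm38.p6 and read 5′ to 3′ on the gene's own strand, and 5 of the 10 members had such an entry. Capitals mark matches, on either strand, to the AP-1 motif TGANTCA, the GC box GGGCGG and the TATA box TATAAA, of which the last was matched on both strands in overlapping letters.
Gja1 (chr10:56377050-56377299, plus strand): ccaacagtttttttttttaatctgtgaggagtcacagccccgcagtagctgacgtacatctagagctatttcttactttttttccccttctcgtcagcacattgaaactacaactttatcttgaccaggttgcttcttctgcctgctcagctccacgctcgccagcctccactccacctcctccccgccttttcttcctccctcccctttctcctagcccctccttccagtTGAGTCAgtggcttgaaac
Cxcr4 (chr1:128592300-128592549, minus strand): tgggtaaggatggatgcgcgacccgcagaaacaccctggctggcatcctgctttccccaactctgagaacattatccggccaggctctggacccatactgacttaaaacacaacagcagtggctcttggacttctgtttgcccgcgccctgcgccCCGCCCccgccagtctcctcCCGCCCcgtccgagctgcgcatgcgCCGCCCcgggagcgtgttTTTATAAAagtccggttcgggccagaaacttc
The Gja1 window held 1 AP-1 match that begins 19 bases before the start, and 0 matches to the other 2 motifs. An AP-1 match was present in 6.75% of 32851 such windows. The Cxcr4 window held 0 AP-1 matches, 3 GC boxes and 2 overlapping TATA box matches, and these motifs were present in 32.7% and 12.4% of windows. Bases G and C made up 50% of the Gja1 window with 6 CpG dinucleotides, and 61.2% of the Cxcr4 window with 19. These matches describe letters only, and binding was not measured.

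The genes whose values followed Gja1 most closely were Cnn3, an actin-binding calponin, Nek6, a mitotic kinase, and Ccnd1, cyclin D1. Their log2 values, each centred on its mean over the 6 libraries, differed from those of Gja1 by 0.073, 0.085 and 0.094 on average. The 3 were picked for this likeness in the same libraries, so their closeness follows from the choice, and shared regulation was not tested. Cnn3 was at 713, 620 and 706 scaled counts in Prmt5 KO, against 376, 238 and 322 in Prmt5 fl/fl, and did not pass the test (adjusted p = 0.0676, limma). Ccnd1 was at 1986, 1892 and 2399 in Prmt5 KO, against 884, 790 and 952 in Prmt5 fl/fl. All 3 have exons that overlap those of a gene on the other strand, and reads of both strands cannot be told apart in these libraries.

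Esam and Jam3 encode immunoglobulin-family proteins of endothelial tight junctions that stem cells carry as well, and neither passed the test. Esam was at 7749, 8003 and 7389 scaled counts in Prmt5 KO, against 6544, 5926 and 9755 in Prmt5 fl/fl. The Prmt5 KO values lay inside the range of Prmt5 fl/fl, whose replicate 3 was the highest of the 6 libraries. The log2 fold change was 0.092, SE 0.19 (adjusted p = 0.826, limma), with a 95% interval of -0.36 to 0.54. It was 0.31 without Prmt5 fl/fl replicate 3 (adjusted p = 0.0963, limma) and -0.051 without Prmt5 fl/fl replicate 2.

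Jam3, the junctional adhesion molecule JAM-C, was at 1225, 1468 and 1239 scaled counts in Prmt5 KO, against 1122, 1171 and 1400 in Prmt5 fl/fl. The groups overlapped, and the log2 fold change of 0.092 had a 95% interval of -0.28 to 0.47 (adjusted p = 0.790, limma). Exons of Jam3 overlap Gm48796 on the other strand, whose reads cannot be told apart. Cdh2, N-cadherin, a protein of contacts between osteoblast-lineage cells and proposed for stem cells, had 6, 1 and 22 reads in Prmt5 KO, against 9, 4 and 3 in Prmt5 fl/fl. Its mean of 8.41 scaled counts was below the minimum for testing, and without that minimum it was not called (adjusted p = 0.862, limma).

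**Figure D2:**
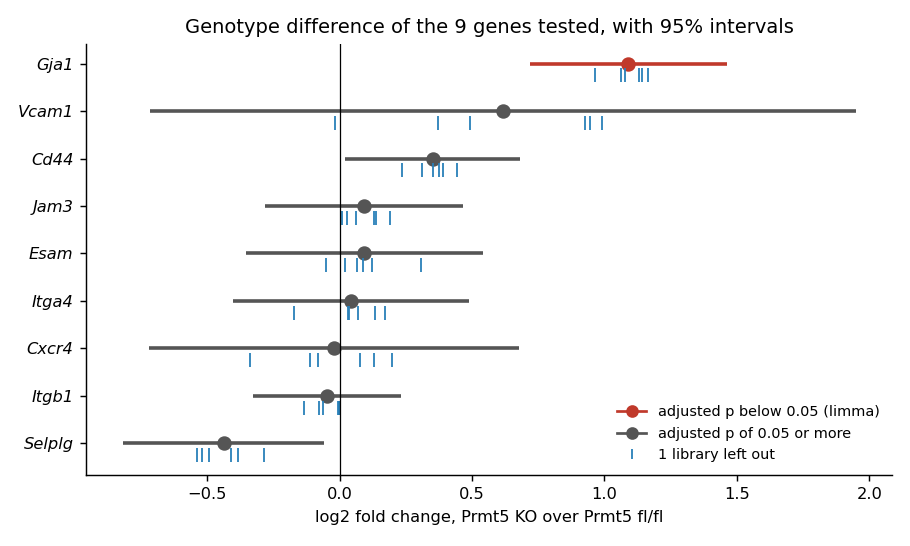
Log2 fold change of Prmt5 KO over Prmt5 fl/fl for the 9 genes tested, with 95% intervals (limma, n = 3 libraries each) and, as blue ticks, the value with 1 library left out. Red marks an adjusted p below 0.05. Gja1 alone was called, at 1.09, and its ticks lie between 0.96 and 1.17, while those of Vcam1 lie between -0.020 and 0.99.

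Neither chain of VLA-4 passed the test. Itgb1, the beta1 chain shared by many integrins, was at 17842, 18289 and 16450 scaled counts in Prmt5 KO, against 19316, 19192 and 16027 in Prmt5 fl/fl. The groups overlapped, and the log2 fold change of -0.049 had a 95% interval of -0.33 to 0.23 (adjusted p = 0.855, limma). Its sign turned under median-of-ratios scaling (0.038), so no direction is given. This was the narrowest interval among the 9 members tested.

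Itga4, the alpha4 chain, was at 5265, 5002 and 5245 scaled counts in Prmt5 KO, against 5667, 5977 and 3720 in Prmt5 fl/fl. The coefficient of variation was 2.84% in Prmt5 KO and 23.9% in Prmt5 fl/fl, whose replicate 3 was the lowest of the 6 libraries. The log2 fold change was 0.044 with a 95% interval of -0.40 to 0.49 (adjusted p = 0.922, limma), and -0.17 without Prmt5 fl/fl replicate 3. Exons of Itga4 overlap those of Cerkl on the other strand, whose reads cannot be told apart.

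Because both chains enter 1 receptor, their ratio within a library was taken, which does not depend on how libraries are scaled. The log2 ratio of Itga4 to Itgb1 in FPKM was -2.99, -3.10 and -2.88 in Prmt5 KO, against -3.00, -2.91 and -3.34 in Prmt5 fl/fl. The beta1 transcript was 7.35-fold to 10.1-fold above the alpha4 transcript in every library. The means of the log2 ratio were -2.99 ± 0.11 in Prmt5 KO and -3.08 ± 0.22 in Prmt5 fl/fl (SD, n = 3 each), a difference of 0.093 (exact permutation test, two-sided, p = 0.6, where the smallest that 3 against 3 libraries allow is 0.1).

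Vcam1, the ligand of VLA-4 on endothelium, stroma and macrophages, varied most among the 9 tested members. It was at 263, 257 and 980 scaled counts in Prmt5 KO, against 442, 187 and 221 in Prmt5 fl/fl. The values overlapped, and 1 library in each group was well above its other 2. The log2 fold change of 0.62 had an SE of 0.57 and a 95% interval of -0.71 to 1.95 (adjusted p = 0.596, limma), and without Prmt5 KO replicate 3 it was -0.020 (adjusted p = 0.989, limma). The same 2 libraries, Prmt5 KO replicate 3 and Prmt5 fl/fl replicate 1, had the highest sums of the neutrophil genes. They were also highest for 10 macrophage and monocyte genes, which summed to 39.9, 31.0 and 146 FPKM in Prmt5 KO replicates 1 to 3, against 135, 58.4 and 68.9 FPKM in Prmt5 fl/fl. Most of those 2 high sums was Ly6c2, at 124 and 115 FPKM, while the macrophage gene Csf1r was at 0.599 to 1.79 FPKM in Prmt5 KO and 0.877 to 2.64 FPKM in Prmt5 fl/fl. The macrophage genes C1qa, C1qc and Cd68 went otherwise and were highest in Prmt5 fl/fl replicate 3, at 2.06, 3.37 and 17.2 FPKM. None of the 10 was at 0 in every library, and their part in the Vcam1 values was not tested. Exons of Vcam1 overlap Gm43109 on the other strand.

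**Figure D3:**
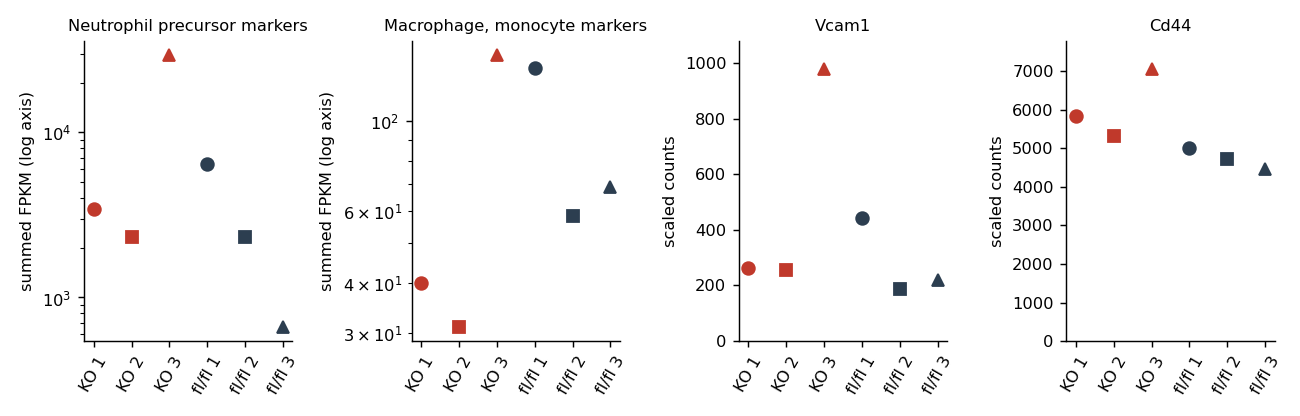
Summed FPKM of 9 neutrophil precursor genes and of 10 macrophage and monocyte genes (log axes), and scaled counts of Vcam1 and Cd44, in each of the 6 libraries. Prmt5 KO libraries (red) are left of Prmt5 fl/fl libraries (dark). Prmt5 KO replicate 3 is the highest library in all 4 panels, at 29384 and 146 FPKM and at 980 and 7069 scaled counts.

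Cxcr4, the receptor for CXCL12 that draws stem cells to the marrow, was at 580, 778 and 813 scaled counts in Prmt5 KO, against 832, 985 and 469 in Prmt5 fl/fl. Prmt5 fl/fl held both the highest and the lowest library. The means were 724 ± 126 in Prmt5 KO and 762 ± 265 in Prmt5 fl/fl (SD, n = 3 each), which gave a log2 fold change of -0.022 with a 95% interval of -0.72 to 0.68 (adjusted p = 0.974, limma). The interval spans 0.607-fold to 1.60-fold, so changes within those limits are not excluded by these libraries. The sign turned under median-of-ratios scaling (0.064) and in 5 other alternatives, and the value was -0.34 without Prmt5 fl/fl replicate 3 (adjusted p = 0.328, limma).

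Cd44, the hyaluronan receptor that also serves as a selectin ligand, was at 5843, 5309 and 7069 scaled counts in Prmt5 KO, against 5000, 4735 and 4468 in Prmt5 fl/fl. All Prmt5 KO libraries were above all Prmt5 fl/fl libraries. The log2 fold change was 0.35, with an SE of 0.14 and a 95% interval of 0.020 to 0.68, and it did not pass the test (adjusted p = 0.251, limma, unadjusted p = 0.0403, a level reached by 18.2% of all genes tested). Prmt5 KO replicate 3, the highest library for Cd44, was also the highest for the sum of the neutrophil genes. Without that library the log2 fold change of Cd44 was 0.24 (adjusted p = 0.554, limma). The part of neutrophil RNA in the Cd44 values was not tested.

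Selplg encodes PSGL-1, the protein through which blood cells roll on P-selectin and E-selectin. It was at 7666, 7395 and 8914 scaled counts in Prmt5 KO, against 10026, 9406 and 13353 in Prmt5 fl/fl. All Prmt5 KO libraries were below all Prmt5 fl/fl libraries. The log2 fold change was -0.44, with an SE of 0.16 and a 95% interval of -0.82 to -0.059, and it did not pass the test (adjusted p = 0.217, limma, unadjusted p = 0.0290). Without Prmt5 fl/fl replicate 3, the highest library, it was -0.29 (adjusted p = 0.158, limma), and over all 14 alternatives the adjusted p ran from 0.158 to 0.500.

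Per length of gene, Itgb1, Esam and Selplg averaged 93.5, 93.1 and 68.7 FPKM in Prmt5 KO and 97.0, 89.4 and 93.9 FPKM in Prmt5 fl/fl. Averaged over all libraries they were above at least 91.3% of the genes tested. In Prmt5 KO, Selplg lay below both Itgb1 and Esam in every library, and those 2 overlapped, while in Prmt5 fl/fl the ranges of these 3 genes overlapped and their order was not resolved. Cd44 followed at 24.0 FPKM in Prmt5 KO and 18.7 FPKM in Prmt5 fl/fl, apart from its neighbours in both groups.

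Next came Gja1, Jam3, Itga4 and Cxcr4, at 15.9, 14.9, 11.8 and 8.92 FPKM in Prmt5 KO and 7.53, 14.0, 11.7 and 9.40 FPKM in Prmt5 fl/fl. Gja1 was the fifth of the 10 in Prmt5 KO and the eighth in Prmt5 fl/fl. It overlapped Jam3 in Prmt5 KO and Cxcr4 in Prmt5 fl/fl, so its place next to those genes was within their spread. Jam3, Itga4 and Cxcr4 kept this order in every Prmt5 KO library without overlap, while in Prmt5 fl/fl their neighbouring ranges overlapped. There, Itga4 was above Cxcr4 in all 3 libraries, and Jam3 was above Itga4 in 1 of 3. Vcam1, at 3.29 ± 2.74 FPKM in Prmt5 KO and 1.87 ± 0.91 FPKM in Prmt5 fl/fl (SD, n = 3 each), and Cdh2, at most 0.125 FPKM in any library, came last in both groups.

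**Figure D4:**
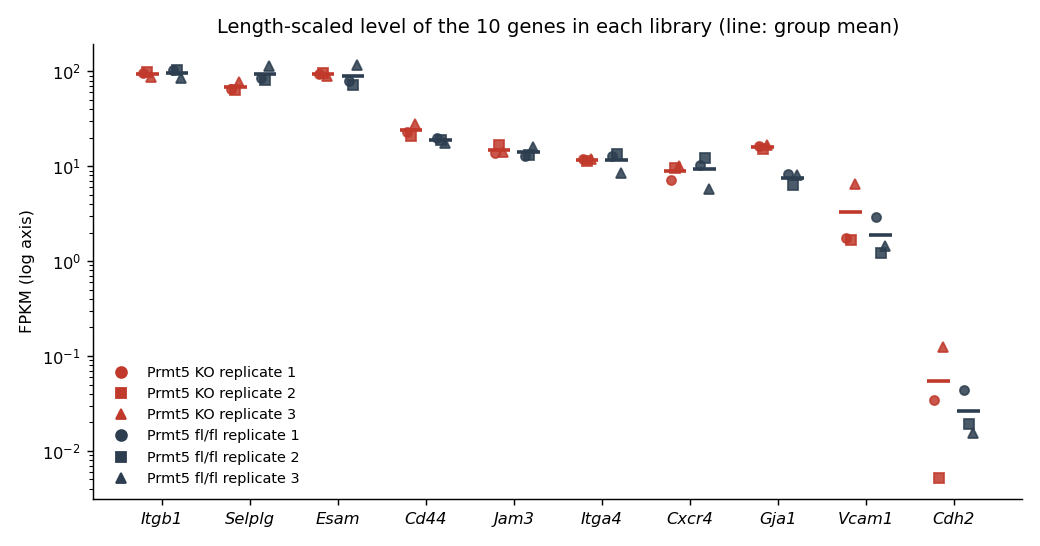
FPKM (log axis) of the 10 genes in each library, ordered by their mean in Prmt5 fl/fl, with Prmt5 KO (red) left of Prmt5 fl/fl (dark) and a line at each group mean. Gja1 stands at 15.9 FPKM in Prmt5 KO, beside Jam3 at 14.9, against 7.53 FPKM in Prmt5 fl/fl, below Cxcr4 at 9.40.

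For 7 of the 9 tested members the SD of the log2 values was smaller in Prmt5 KO than in Prmt5 fl/fl, and this was so for 67.5% of all genes tested. Prmt5 KO replicates 1, 2 and 3 were the highest or lowest library for 0, 2 and 3 of the 9, against 24.8%, 21.5% and 39.1% of all genes tested. Prmt5 fl/fl replicates 1, 2 and 3 were so for 2, 5 and 6 of the 9, against 18.2%, 30.7% and 65.6% of all genes tested. The 6 members for which Prmt5 fl/fl replicate 3 was the highest or lowest were Cxcr4, Itga4, Itgb1, Cd44, Esam and Selplg.

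Around the members, 122 other symbols of adhesion and homing were listed in 6 groups, of which 119 were in the table and 113 were tested. Limma called 0 of the 113 and edgeR called 0, with 10 higher and 11 lower at an unadjusted limma p below 0.05, a level reached by 18.2% of all genes tested. DESeq2 called 9, of which 7 were higher and 2 lower, where it called 6.95% of all genes tested, and 6 of these 9 are among the genes described next, namely Itgb7, Coro1a, Selp, Tjp1, Mmp14 and Has2. The median log2 fold change of the 113 was 0.034, against -0.048 over all genes tested, and the groups did not overlap for 27 of them, where this was so for 28.2% of all genes tested. The genes named next had the smallest p of their list, and none passed the limma test.

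Among 13 integrin subunits, Itgb7, the other beta chain that pairs with alpha4, was at 646, 690 and 1123 scaled counts in Prmt5 KO, against 1324, 1682 and 1842 in Prmt5 fl/fl. Its log2 fold change was -1.01 (adjusted p = 0.105, limma, and DESeq2, adjusted p = 0.0293). Itga2, a collagen-binding chain, was low throughout, at 33.1 to 78.0 in Prmt5 KO and 68 to 131 in Prmt5 fl/fl. The median of the 13 was 0.16, with 7 above 0. The list left out Itga2b, the integrin chain CD41, which was counted among the megakaryocyte and platelet genes. Itga2b was at 7124, 6866 and 4926 scaled counts in Prmt5 KO, against 22127, 30328 and 20679 in Prmt5 fl/fl, without overlap.

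Of 18 tested genes that switch integrins on, 9 were above 0 and 9 below, and the median was -0.055. Fermt3, the kindlin-3 of blood cells that binds beta chains, was at 33125, 30703 and 30135 scaled counts in Prmt5 KO, against 40947, 42440 and 46534 in Prmt5 fl/fl, a log2 fold change of -0.47 (adjusted p = 0.0871, limma). Rap1b, a small GTPase that activates integrins, had a log2 fold change of -0.70 (adjusted p = 0.127, limma). Exons of Fermt3 overlap those of Trpt1 on the other strand. The same holds for 4 genes named below: Coro1a with Bola2, Dpp4 with Gm13561, Selp with Gm16587 and Gm16548, and Has2 with Has2os. Reads of both strands cannot be told apart there.

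Of 23 tested genes of CXCL12 signaling and migration, 17 were above 0, with a median of 0.060. Coro1a, an actin regulator of blood cell migration, was at 45669, 43083 and 47375 scaled counts in Prmt5 KO, against 35170.5, 32667 and 37096 in Prmt5 fl/fl, a log2 fold change of 0.38 (adjusted p = 0.128, limma). Dpp4, the peptidase that inactivates CXCL12, had a log2 fold change of -0.85 (adjusted p = 0.136, limma). Among 15 selectin genes, ligands and glycosyltransferases the median was -0.045, with 6 above 0. Selp, P-selectin, the partner of Selplg, was at 7962, 4856 and 7394 scaled counts in Prmt5 KO, against 3157, 3494 and 4690 in Prmt5 fl/fl, a log2 fold change of 0.82 (adjusted p = 0.130, limma).

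Of 22 tested junction and immunoglobulin-family genes, 10 were above 0, with a median of -0.11. Tjp1, the scaffold ZO-1 that binds connexin 43, was at 928, 1293 and 1299 scaled counts in Prmt5 KO, against 724, 482 and 210 in Prmt5 fl/fl. Its log2 fold change was 1.47 with a 95% interval of 0.47 to 2.47 (adjusted p = 0.140, limma, and DESeq2, adjusted p = 0.0126). Leaving out 1 library at a time moved this fold change between 0.97 and 1.86. The smallest value, 0.97, came from dropping the lowest library, Prmt5 fl/fl replicate 3, so the size of the Tjp1 difference leans on that library. Jam2, the partner of JAM-C on endothelium, was at 304, 304 and 300 in Prmt5 KO, against 529, 394 and 516 in Prmt5 fl/fl, a log2 fold change of -0.65 (adjusted p = 0.151, limma).

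Of 22 tested genes of hyaluronan, matrix and tetraspanins, 13 were above 0, with a median of 0.11. Mmp14, a membrane-bound matrix protease, was at 541, 430 and 540 scaled counts in Prmt5 KO, against 747, 825 and 1199.9 in Prmt5 fl/fl, a log2 fold change of -0.85 (adjusted p = 0.117, limma). Has2, an enzyme that makes the hyaluronan bound by CD44, was barely detected, at 10.7 to 54.3 scaled counts in Prmt5 KO, against 0 to 4.05 in Prmt5 fl/fl (adjusted p = 0.134, limma). Its highest value was in Prmt5 KO replicate 3, and the log2 fold change was 3.60 with that library and 2.90 without it (adjusted p = 0.395, limma). At such low values it depends on the pseudocount, and was 1.48 with 10 added to each value in place of 1.

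**Figure D5:**
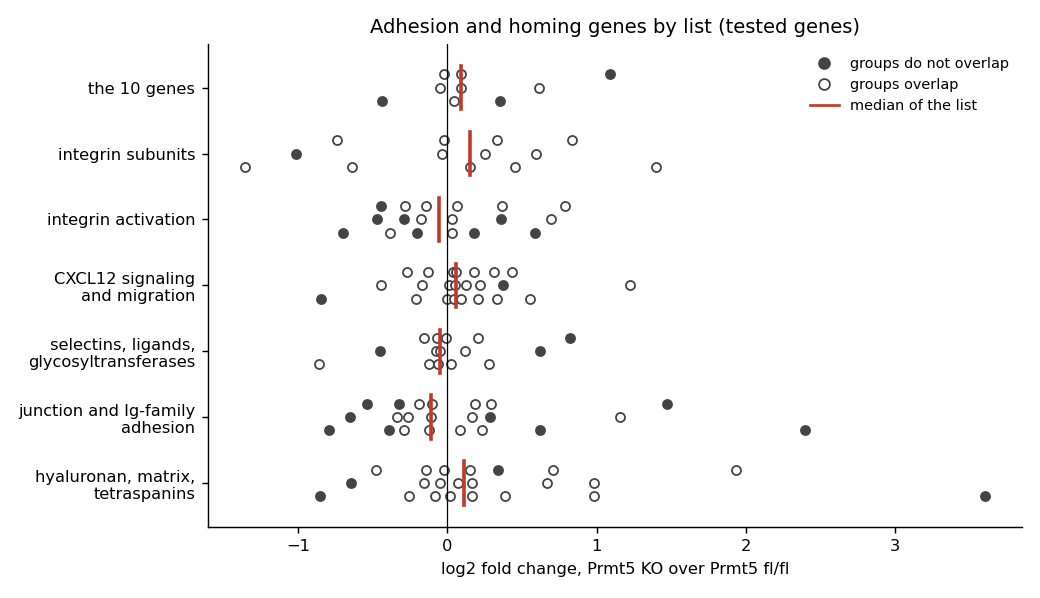
Log2 fold change of Prmt5 KO over Prmt5 fl/fl for the tested members (top) and for the 113 tested genes of the 6 lists, with 1 point per gene and a red line at the median of each list. Filled points are genes whose 2 groups of 3 libraries do not overlap. List medians lie between -0.11 and 0.16, and Gja1 is the one point called by limma.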

How the data were processed

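Trizol-extracted RNA went through SMART-Seq v4 cDNA amplification and Nextera XT library preparation, per the labels' protocols, and neither kit marks strand. Reads were aligned with STAR and counted with featureCounts on mm10, per the submitters' processing notes, and their versions and the annotation are not stated in the labels. For Prmt5 fl/fl replicate 2 the deposited values are read counts. In the other 5 deposited columns the authors' values are a scaled signal, each count brought from its library's total to that of Prmt5 fl/fl replicate 2 (44704636). Reversing the factor gave whole reads for 100% of values (tolerance 1e-06). Titles matched all 6 columns to samples. FPKM was computed here from those reads, the deposited gene length and the total.

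Genotypes were compared on log2(value + 1), which understates folds of low genes, over 14113 genes with a mean of at least 10, with limma's two-sided moderated test (4 residual degrees of freedom) and Benjamini-Hochberg adjustment over all of them, called below 0.05. The design took the values to be scaled counts, and edgeR and DESeq2 on the recovered reads were alternatives. The 3 same-number pairs share a title prefix, whose meaning the labels do not give, and mice were litter-matched, so the block fit (2 residual degrees of freedom) is given where it changes a call; deviations within pairs correlated at -0.14, 0.067 and -0.26 across genes. No library was a copy of another of its group (chi-square over degrees of freedom, 26.7 to 227). P-values measure the spread between libraries, each from 1 pool of mice, in which mice, sorting and library preparation cannot be told apart. What limited the precision was not tested. The members and lists were chosen with earlier results of these data known. Named genes were all members, Prmt5, in each list the genes called (or, with none called, the 2 with the smallest p) and the 3 genes nearest to the member with the smallest p, and 1 gene so chosen is not reported here. Annotation came from GENCODE M21 on GRCm38. The tests were also run on simulated counts of independent libraries. These had no pairing and no outlying library, so they do not show how the tests behave with either. R 4.3.3, limma 3.58.1, edgeR 4.0.16, DESeq2 1.42.0, Python 3.11.15, SciPy 1.17.1 and matplotlib 3.10.9 were used.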

Additional observations from a re-analysis of the deposited data

How the results depend on the processing

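Of the 10 members, 1 was called higher (Gja1) and 0 lower under the main settings. The count of higher members was 0 with quantile normalization and 0 with the replicate number as a block, and 0 to 1 with 1 library left out, where only leaving out Prmt5 fl/fl replicate 3 kept the call. No member was called lower in any of the 14 alternatives. With the block the adjusted p of Prmt5 was 0.0618 at a log2 fold change of -2.60, and Prmt5 was called in the other 13 alternatives. Signs without a call turned for Cxcr4 (0.064 with median-of-ratios size factors, 0.049 with quantile normalization, 0.014 with DESeq2), for Itgb1 (0.038 with median-of-ratios size factors, 0.0094 with edgeR and 0.034 with DESeq2), and with 1 library left out for Cxcr4 (-0.34 to 0.20), Itga4 (-0.17 to 0.17), Vcam1 (-0.020 to 0.99) and Esam (-0.051 to 0.31). Without Prmt5 KO replicate 1, Prmt5 fl/fl replicate 1 and Prmt5 fl/fl replicate 2 Cxcr4 was at 0.13, 0.075 and 0.20. The difference of the Itga4 to Itgb1 log2 ratio ran from -0.034 to 0.18 with 1 library left out, below 0 only without Prmt5 fl/fl replicate 3, and was 0.093 within pairs (exact sign-flip permutation, two-sided, p = 0.75). Of the other adhesion genes, DESeq2 called 7 higher and 2 lower, where it called 6.95% of all genes tested.

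Over all genes, limma called 39 higher and 64 lower. The counts were 365 and 616 by DESeq2, and 1 and 0 with the replicate block. Lower calls were 38 with no filter on low values, 22 with median-of-ratios size factors, 26 with quantile normalization and 26 by edgeR. With 1 library left out, 1 to 121 were higher and 2 to 257 lower, both highest without Prmt5 fl/fl replicate 3. The cause of these changes was not tested. The median of all genes was at -0.048, and at 0.039 with median-of-ratios size factors. With 3 libraries in each group, the intervals of the members not called still allow changes up to their limits.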

Other observations

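Some genes of the adhesion lists outside the rule for named genes were picked after their values were seen. Mcam, an immunoglobulin-family adhesion molecule of endothelial cells (CD146), was low, at 61.4, 36.4 and 227 scaled counts in Prmt5 KO, against 15.2, 35 and 5.30 in Prmt5 fl/fl (limma, adjusted p = 0.203, and DESeq2, adjusted p = 0.0335). Its log2 fold change was 2.39 with all libraries and 1.65 without Prmt5 KO replicate 3 (limma, adjusted p = 0.477). Ptk2, the focal adhesion kinase, was at 1701, 2269 and 1813 in Prmt5 KO, against 1577, 1255 and 1043 in Prmt5 fl/fl (limma, adjusted p = 0.188, and DESeq2, adjusted p = 0.0441). Alcam, an adhesion molecule of stem and stromal cells, was at 616, 855 and 1021 in Prmt5 KO, against 1147, 1090 and 1307 in Prmt5 fl/fl (limma, adjusted p = 0.249).

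Itgam, the integrin chain CD11b of myeloid cells, was at 1852, 1109 and 13041 scaled counts in Prmt5 KO replicates 1 to 3, against 2645, 1312 and 419 in Prmt5 fl/fl (limma, adjusted p = 0.488). Prmt5 KO replicate 3 and Prmt5 fl/fl replicate 1 were its highest libraries, as they were for the sum of the neutrophil genes and for Vcam1. For Itgam the log2 fold change was 1.40 with all libraries and 0.34 without Prmt5 KO replicate 3 (limma, adjusted p = 0.873). Cxcl12, the ligand of Cxcr4, was at 113, 809 and 586 in Prmt5 KO, against 42.5, 195 and 502 in Prmt5 fl/fl, and spread widely in both groups (limma, adjusted p = 0.550).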
